A study of Mus musculus with 24 samples.

Results

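White adipose tissue of mice given antimiR-224 was compared with white adipose tissue of mice given antimiR-452, so that each microRNA inhibitor was set against the other. The labels give 4 libraries to each inhibitor, 8 of the 24 libraries of the series. All mice were C57BL/6 and were injected under the skin 2 times with 25 mg/kg of an oligonucleotide carrying locked nucleic acid, a modified nucleotide that strengthens pairing. The 4 white fat libraries of mice given scramblemiR, an oligonucleotide of scrambled sequence, serve as reference, so every group had received such an oligonucleotide. The fat depot and the age and sex of the mice are not in the labels. The labels do not state that each library came from a mouse of its own, so p-values measure the spread between these libraries. RNA was selected for poly(A) tails, which mature microRNAs lack, and the block of either microRNA was therefore not measured.

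Genes were joined by Ensembl identifier between the table of antimiR-224 and the table of antimiR-452. Of 28307 joined genes, 17492 had a mean normalized count of at least 10 over both inhibitors, and these are described here. A normalized count is the number of reads of a gene divided by the size factor of its library. The group means are the authors', and the reads behind them were recovered library by library for 14914 of the 17492 genes (85.3%). The 2578 other genes were abundant, with a median mean of 2948, and have group means only. Libraries are numbered within a group by descending size factor, an order unrelated to the numbers in sample titles. A log2 ratio below is that of the group means after adding 1, antimiR-224 over antimiR-452. A log2 difference is the fitted difference of the mean log2(normalized count + 1), and both understate changes of low genes.

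MicroRNAs guide silencing proteins to transcripts that pair with their seed, bases 2 to 8, and lower the level or the translation of those transcripts. An antimiR pairs with the mature microRNA and blocks it, which releases its targets. Both microRNAs are made from hairpins inside Gabre, the gene of the epsilon subunit of the GABA-A receptor. Their mature 5p arms, taken from RefSeq (GRCm38.p6), are shown because the seeds, in capitals, set which transcripts each inhibitor could release.
mmu-miR-224-5p: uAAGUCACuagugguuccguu
mmu-miR-452-5p: uGUUUGCAgaggaaacugagac
The first lies at chrX:72261085-72261105 and the second at chrX:72262271-72262292, both on the minus strand, within Gabre (chrX:72255999-72274803, minus strand, GRCm38). The seeds differ, and their DNA matches in a transcript are GTGACTT for miR-224 and TGCAAAC for miR-452. The labels name neither the arm blocked nor the sequence of the inhibitors. The host transcript Gabre had normalized counts of 210.1, 254, 151 and 136 with antimiR-224 against 188, 144, 170.0 and 145 with antimiR-452. The groups overlapped, and scramblemiR libraries ran from 117 to 203. The log2 difference was 0.18 (SE 0.23), with an unadjusted limma p of 0.454.

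The means of both inhibitor groups carried a strong fat cell signature, and transcripts of other tissues divided the libraries within both groups. All 18 listed genes of mature adipocytes were measured, as group means only, so their levels in single libraries are not known. Among them was Adipoq (adiponectin), with means of 61188 and 62312 for antimiR-224 and antimiR-452. Genes of transporting tubule epithelium, such as proton pump subunits, had a geometric mean over 13 genes of 213, 210.0, 31.3 and 22.9 in the antimiR-224 libraries. The antimiR-452 libraries had 183, 177, 167 and 27.3. Thus 5 libraries, 2 with antimiR-224 and 3 with antimiR-452, stood at 167 or above, and the other 3 lay among or below the scramblemiR libraries (28.6 to 63.1). Genes of simple epithelium, such as the claudin gene Cldn7, and of motile cilia divided the same libraries. Simple epithelium had 297, 499.9, 5.04 and 3.53 with antimiR-224 against 246, 292, 239.5 and 4.70 with antimiR-452 over 10 genes. Motile cilium genes had 541, 665, 60.3 and 19.9 against 349, 525, 415 and 7.11 over 18 genes. Within scramblemiR they ran from 6.54 to 156. As ratios of group means these 3 lists had medians of -0.12, 0.01 and 0.07, and as fitted log2 differences -0.32, -1.26 and 0.13. The fitted medians cover only the recovered genes, over which the median ratio of means of the simple epithelium list was -0.12. The keratins of that list were not recovered and have group means only. Members with a higher mean with antimiR-224 numbered 4 of 15, 8 of 15 and 11 of 19 in that order. The epithelial marker Elf3 had counts of 1262, 1576, 1.09 and 1.11 with antimiR-224 against 668, 1337, 1030.5 and 3.31 with antimiR-452. In bulk tissue, fewer cells of a type and less RNA per cell cannot be told apart.

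The first principal component of the 8 libraries held 57.8% of the variance and parted the same 5 from the other 3. Across 14914 genes, which are not independent replicates, Pearson's r ran from 0.752 to 0.951 (median 0.861) in the 12 pairs within an inhibitor group. In the 16 pairs between the groups it ran from 0.785 to 0.971 (median 0.869). The most alike pair was antimiR-224 library 1 and antimiR-452 library 3, from different groups. The fits of genes with recovered reads were also made with the tubule list as a covariate and in the 5 libraries rich in tubule genes alone, which was not possible for genes with group means only.

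**Figure D1:**
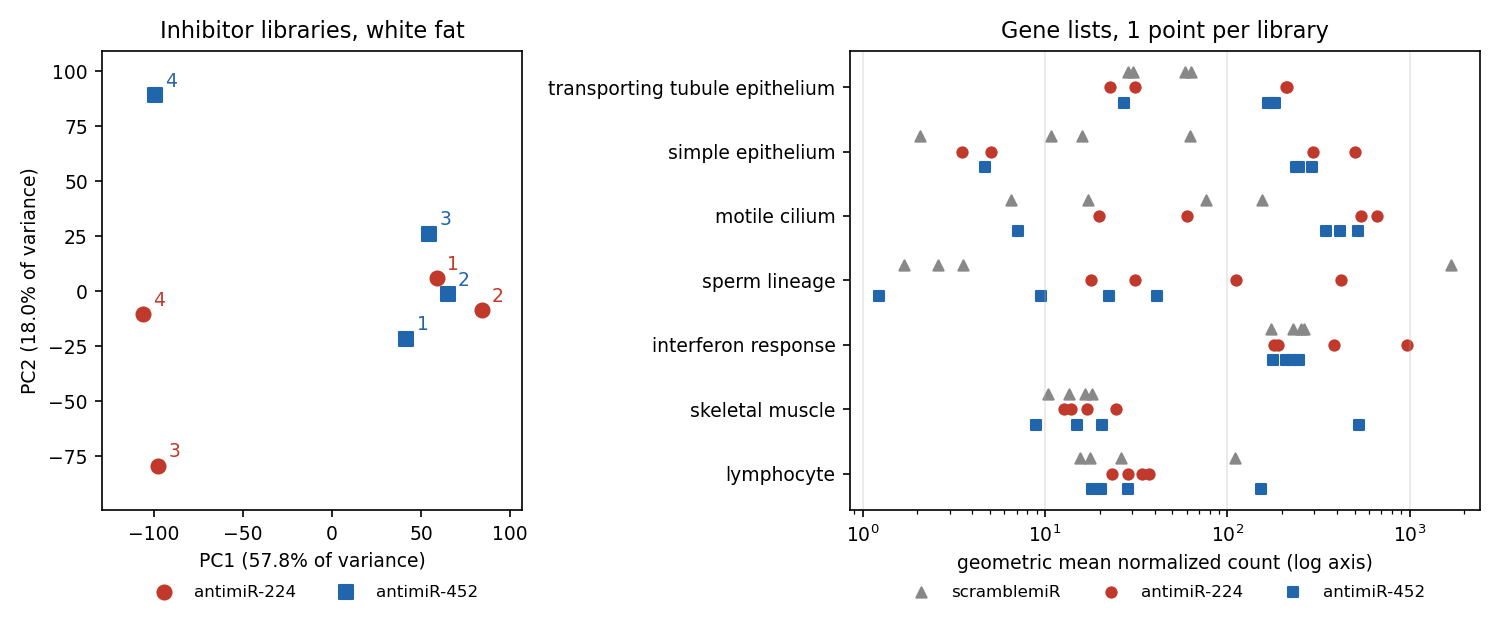
Left, the 8 inhibitor libraries on the first principal components of log2 normalized counts over 14914 genes, numbered within each group; 5 libraries sit at PC1 above 40 and 3 below -97. Right, the geometric mean normalized count of 7 gene lists (log axis), 1 point per library, where tubule, simple epithelium and cilium genes split both inhibitor groups.

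No gene differed between the inhibitors past the threshold. The limma test called 0 of 14914 genes (0.0%) at an adjusted p of 0.05, and its lowest adjusted p was 0.9998. At an unadjusted p under 0.05 there were 312 genes (2.09%), 195 higher with antimiR-224 (1.31%) and 117 lower (0.784%). Limma with voom weights called 0 genes as well, with 246 at that unadjusted p. All 4 antimiR-224 libraries lay above all 4 antimiR-452 libraries for 143 genes (0.959%) and below them for 128 (0.858%). Over all 17492 genes the median log2 ratio was 0.01, the middle 50 percent lay between -0.12 and 0.16, and 95.6% of genes were within 2-fold. Among the rest, 661 were over 2-fold higher with antimiR-224 (3.78%) and 116 over 2-fold lower (0.663%). Of the 2578 genes without recovered reads, 23 were past 2-fold. The median standard error of a log2 difference was 0.25.

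**Figure D2:**
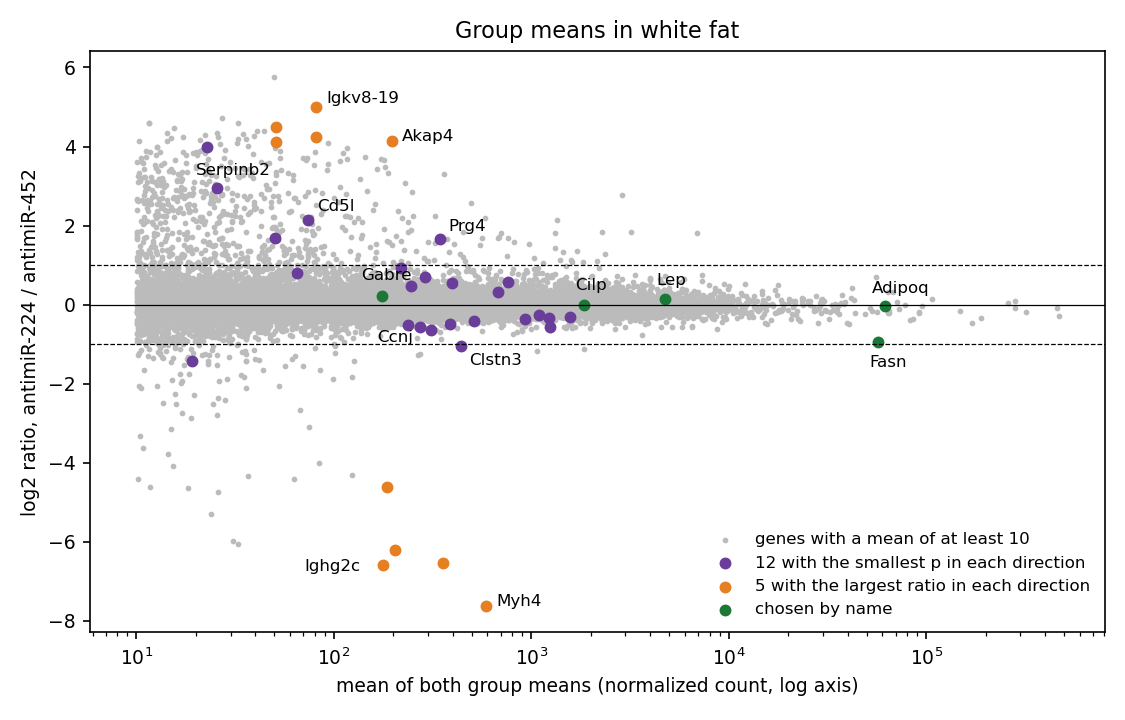
Log2 ratio of group means, antimiR-224 over antimiR-452, against the mean of both (normalized count, log axis) for 17492 genes, with dashed lines at 2-fold. Genes past 2-fold lie mostly at low means and above the zero line, and Adipoq, Lep and Cilp lie at or near it.

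The 4 genes with the lowest p among those higher with antimiR-224 are known from resident macrophages of the peritoneal cavity. Prg4 (chr1:150449412-150466165) encodes lubricin, a secreted glycoprotein of joint and serosal surfaces that these macrophages also express. Its counts were 675, 328, 510.5 and 573 with antimiR-224 against 148, 97.3, 201 and 215 with antimiR-452. All 4 antimiR-224 libraries were above all 4 antimiR-452 libraries, while scramblemiR libraries spanned both groups at 595, 298, 327 and 74.7. The log2 difference was 1.67 (SE 0.30) and the unadjusted limma p 0.000462, the lowest of all genes, with an adjusted p of 0.9998. Cd5l (chr3:87357881-87371073), a secreted macrophage protein that protects cells from apoptosis, had 172, 93.3, 106 and 117 against 30.1, 8.50, 30.4 and 37.5. Its log2 difference was 2.29 (SE 0.46), and the scramblemiR libraries ranged from 3.45 to 119. For Cd5l, too, no library of one inhibitor reached the range of the other.

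Serpinb2 (chr1:107511423-107535478), an inhibitor of plasminogen activators, had counts of 46.2, 40.8, 40.4 and 56.5 with antimiR-224 against 5.02, 0, 6.30 and 8.83 with antimiR-452. The log2 difference of 3.35 (SE 0.72) rests on low counts with antimiR-452, one of them 0. Padi4 (chr4:140745865-140774236), which converts arginine in proteins to citrulline, had 102, 58.3, 55.6 and 93.1 against 27.6, 12.3, 19.9 and 33.1, a log2 difference of 1.73 (SE 0.38). In both genes the groups did not overlap, and none of the 4 genes passed adjustment. In the 5 libraries rich in tubule genes the log2 difference of Prg4 was 1.71 and that of Cd5l 2.60, both as large as over all 8 libraries. Both genes were chosen by p in these same libraries, and their groups did not overlap. A part of the libraries could not reverse the direction, so these values are no test.

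A list of 18 genes of resident peritoneal macrophages was written after these 4 genes had been seen and contains them, so its counts carry no test and only describe. Of the 18 genes, 17 had a higher mean with antimiR-224, with a median log2 ratio of 0.73. The geometric mean over the list was 203, 176, 209 and 214 with antimiR-224 against 116, 67.7, 98.5 and 101 with antimiR-452. The scramblemiR libraries had 157, 199, 136 and 47.2, a range wider than that of either inhibitor. Alox15, the lipoxygenase of these cells, had 445, 248, 334 and 519 against 103, 17.0, 132 and 159. Coagulation factor gene F5 had 223, 139, 218 and 115 against 75.4, 26.5, 67.2 and 99.3. Gata6, the transcription factor that marks peritoneal macrophages and is also made by mesothelium, overlapped between the groups at 596 to 1101 and 347 to 776. Mesothelial genes, which mark the lining of the body cavity, differed in the same direction: 13 of 13 were higher with antimiR-224, with a median log2 ratio of 0.88. The 3 of these with recovered reads summed to 1139 to 3604 with antimiR-224, 303 to 1590.0 with antimiR-452 and 349 to 1887 with scramblemiR, none at 0, and their part in the Prg4 difference was not tested. The median over the 3 was 0.46 without antimiR-224 library 3 and 0.37 in the 5 libraries rich in tubule genes. Krt8, Krt18 and Krt19, counted among the 13, also belong to the simple epithelium list and have group means only.

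The other 8 genes by p in that direction came from several processes. Gadd45b (chr10:80930073-80932204), a stress-induced regulator of growth arrest, had 287, 289.5, 273 and 290.4 with antimiR-224 against 223.6, 193, 215 and 195 with antimiR-452. The spread within each group was small, and the log2 difference was 0.46 (SE 0.12, unadjusted limma p 0.0037). Chac1, a glutathione-degrading enzyme of the integrated stress response, had 298, 319, 358 and 460.0 against 243, 247, 207 and 184, a log2 difference of 0.69 (SE 0.17). Mctp1, a calcium-binding membrane protein, had 74.1, 83.6, 91.6 and 84.2 against 52.8, 36.9, 49.3 and 49.7, while 3 of the 4 scramblemiR libraries lay within or above the antimiR-224 range. Basp1, a membrane-bound protein of growing neurites, had a log2 difference of 0.97 (SE 0.24). Rpl22l1, a paralogue of ribosomal protein L22, had 0.56 (SE 0.14) and the predicted gene Gm6085 0.33 (SE 0.09), where reads may be shared with near-identical copies. 3110039I08Rik had 0.59 (SE 0.16), and its overlap with other transcripts was not examined. Plcz1, the sperm phospholipase that activates the egg, had 7.85, 13.6, 123 and 29.9 against 3.35, 1.89, 2.10 and 0 and belongs with the sperm genes below. In each of these 8 genes all antimiR-224 libraries were above all antimiR-452 libraries, a pattern that the choice by p favours.

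**Figure D3:**
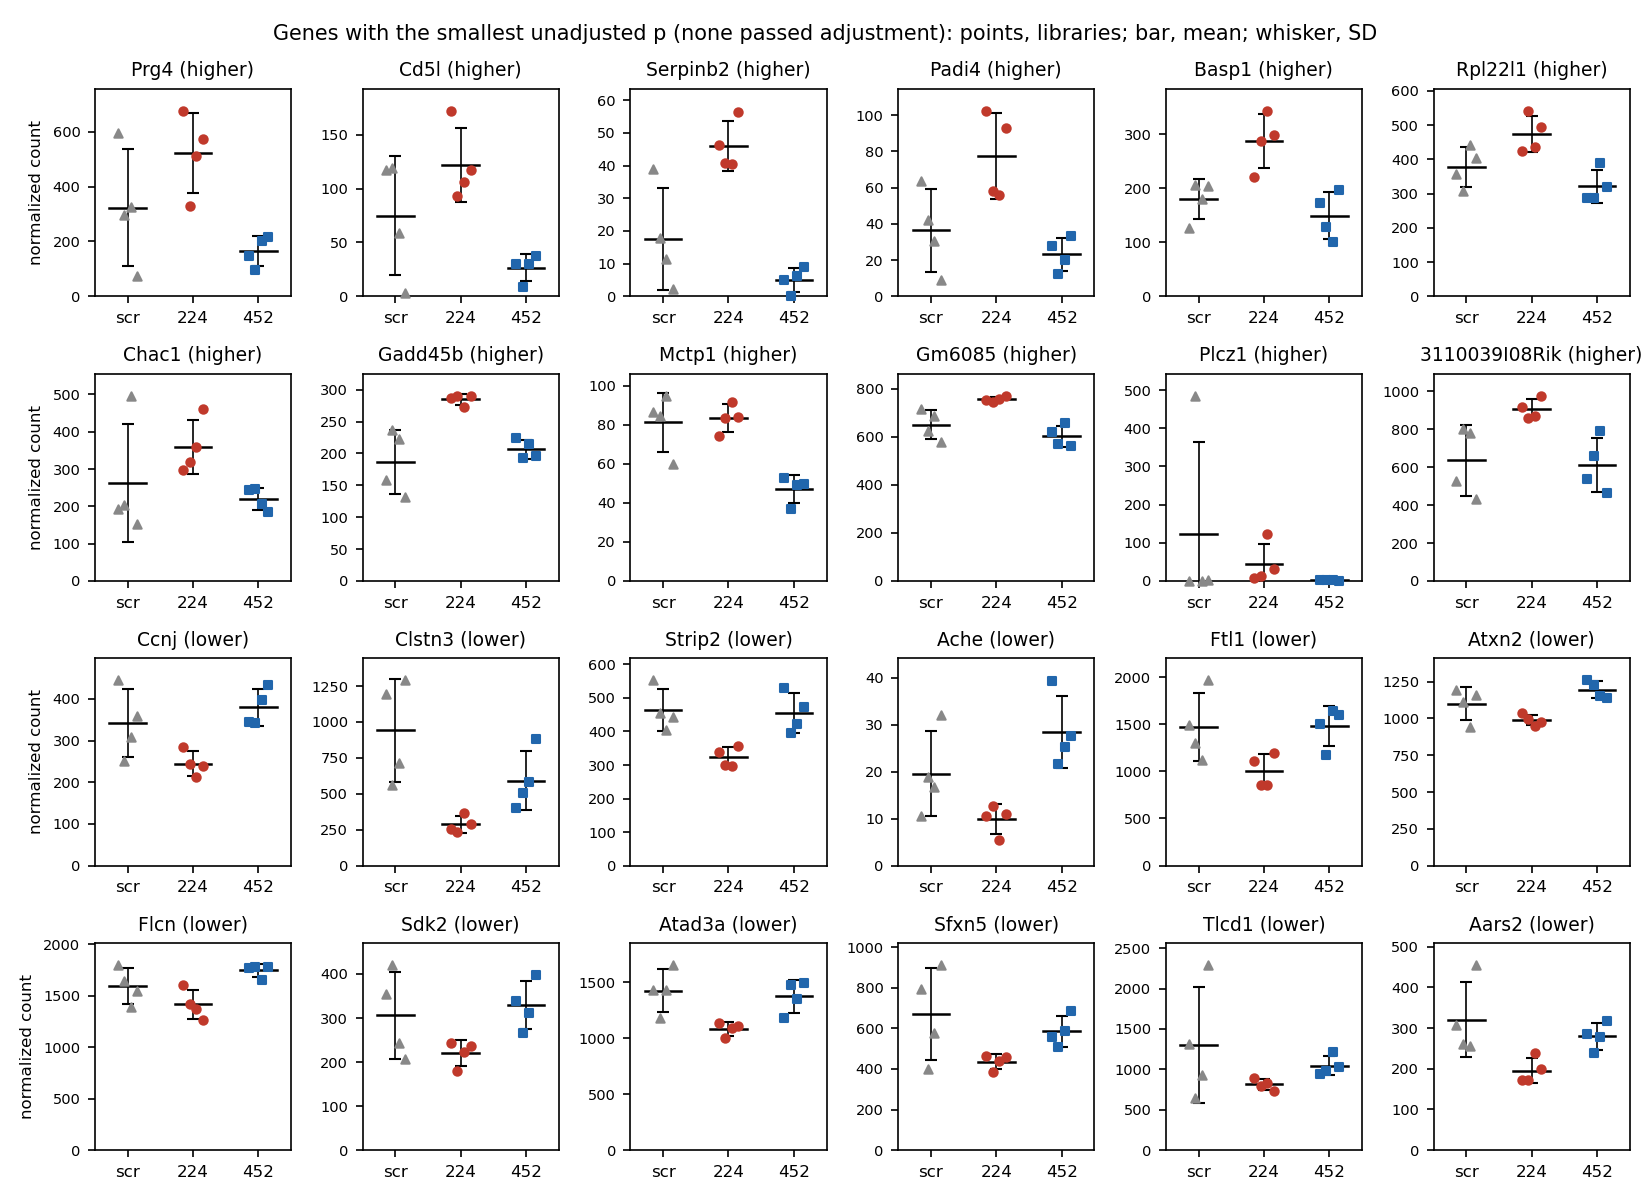
Normalized counts of the 24 genes with the lowest p, 12 in each direction, for scramblemiR, antimiR-224 and antimiR-452 (in this order, left to right in a panel); points are libraries, bars means and whiskers SD of 4 libraries. Inhibitor groups do not overlap in any panel except Ftl1, and the scramblemiR libraries often span both.

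Among genes lower with antimiR-224, those with the lowest p included a lipid storage gene, a cyclin and several genes of mitochondrial proteins. Clstn3 (chr6:124430759-124464794, minus strand), whose adipocyte product acts at lipid droplets, had counts of 256, 230.3, 368 and 289 with antimiR-224 against 402, 504, 580.3 and 883 with antimiR-452. Every antimiR-224 library was below every antimiR-452 library, and the scramblemiR libraries at 1197, 564, 713 and 1289 were above all antimiR-224 libraries. The log2 difference was -1.01 (SE 0.25, unadjusted limma p 0.00329, adjusted p 0.9998). Against the shared scramblemiR libraries, the authors' deposited table gives Clstn3 a log2 ratio of -1.72 with antimiR-224 (adjusted p 0.795) and -0.67 with antimiR-452 (adjusted p 1). Ccnj (chr19:40831279-40848572), cyclin J, had 285, 244, 212 and 238 against 344, 343, 398 and 434, a log2 difference of -0.63 (SE 0.14) and the lowest p in this direction, 0.00175 before adjustment. Its scramblemiR libraries, 252 to 444, overlapped both groups.

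Of proteins of mitochondria, Atad3a, a membrane ATPase, had 1135, 998, 1089.7 and 1108 with antimiR-224 against 1176, 1476, 1348 and 1488 with antimiR-452 (log2 difference -0.34, SE 0.10). Sfxn5, a sideroflexin of the inner membrane, had 462, 383, 439.6 and 461 against 556, 510.3, 586 and 687 (log2 difference -0.42). Aars2, the mitochondrial alanyl-tRNA synthetase, had 172, 172, 238 and 201 against 285, 238, 278 and 318 (log2 difference -0.52). In these 3 genes the inhibitor groups did not overlap, and the highest scramblemiR library was above both. Flcn, which encodes folliculin, a regulator of nutrient sensing, had 1601, 1420.4, 1373 and 1267 against 1769, 1779, 1654 and 1775, a log2 difference of -0.31 (SE 0.09). Atxn2, an RNA-binding protein, differed by -0.27 (SE 0.08), with the lowest and the highest counts being 949 to 1036 and 1139.8 to 1259. The other 5 were Ache (acetylcholinesterase, log2 difference -1.45), Strip2 (-0.49), the adhesion protein gene Sdk2 (-0.57), the membrane lipid regulator gene Tlcd1 (-0.36) and Ftl1 (-0.56). Ftl1, the ferritin light chain, was the 1 gene of the 12 whose groups overlapped, and its reads may be shared with processed copies.

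The largest ratios of group means came from 1 or 2 libraries rather than from whole groups. Among genes with a mean of at least 50, the 5 most in favour of antimiR-224 were the sperm genes Spata21, Akap4 and Nt5c1b and the antibody light chain segments Igkv8-19 and Igkv9-120. Akap4, a scaffold protein of the sperm tail, had 15.7, 44.7, 1122 and 304 with antimiR-224 against 52.8, 18.9, 8.39 and 1.103 with antimiR-452, a log2 ratio of 4.13. Igkv8-19 had 0, 0, 636 and 0 against 8.37, 6.61, 0 and 1.103, so 1 library gives the whole ratio. Reads of such light chain segments can be shared between near-identical copies. The 5 most in favour of antimiR-452 were the skeletal muscle genes Myh4, Atp2a1, Ckm and Tnnt3 and the antibody heavy chain gene Ighg2c. Myh4, a fast myosin heavy chain, had 0.872, 13.6, 3.27 and 2.22 against 2.51, 3.78, 4708 and 0, a log2 ratio of -7.62 that came from antimiR-452 library 3. Ighg2c had 8.72, 0.972, 1.09 and 0 against 0, 1398, 0 and 17.7 and came from antimiR-452 library 2. The unadjusted limma p of these 10 genes lay between 0.0231 and 0.817.

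Most genes of lipid metabolism had lower means with antimiR-224, by less than 2-fold. No tested member passed, and many genes, Fasn and Acly among them, could not be tested. Fat cells build fatty acids from acetyl-CoA with Acly, Acaca and Fasn, desaturate and elongate them, and join them to glycerol for storage. Of 18 measured genes of fatty acid synthesis, 0 had a higher mean with antimiR-224 and 18 a lower one, with a median log2 ratio of -0.34. Over all 17492 genes, 9104 were higher with antimiR-224 (52.0%). Fasn, fatty acid synthase, had means of 39150.4 with antimiR-224, 75047 with antimiR-452 and 159351 with scramblemiR, a log2 ratio between the inhibitors of -0.94. Acly, which makes cytosolic acetyl-CoA, had 5283, 7779 and 20128 in the same order. Both inhibitor means lay below the scramblemiR mean, in which the libraries differed widely, from 23700.2 to 302156 for Fasn. Against the scramblemiR libraries, which both comparisons share, the list medians were -1.03 with antimiR-224 and -0.68 with antimiR-452. Only 3 of the 18 genes could be tested, and 15 have group means alone. Elovl6, a fatty acid elongase, had 543, 739, 767 and 410.1 with antimiR-224 against 634, 941, 908 and 639 with antimiR-452. These groups overlapped (log2 difference -0.36, SE 0.23, unadjusted limma p 0.156).

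Of 22 genes of triglyceride assembly and storage, 21 were lower with antimiR-224 (median log2 ratio -0.18), and 4 could be tested. Plin1, the coat protein of the lipid droplet, had means of 33867 and 47119, and Dgat2, the last enzyme of triglyceride synthesis, 12930.3 and 18202, for antimiR-224 and antimiR-452. Abhd5, the coactivator of lipolysis, was the 1 higher member (log2 ratio 0.02). For the citric acid cycle 21 of 22 genes were lower (median -0.18), and for fatty acid oxidation 17 of 21 (median -0.12). For oxidative phosphorylation 44 of 54 were lower, with a median of -0.08 and no member past 2-fold. Most genes of these lists have group means alone, with no error between libraries, so their common direction was not tested. Among the recovered triglyceride, oxidative phosphorylation and fatty acid synthesis genes, medians turned or came closer to 0 in the 5 libraries rich in tubule genes. There the median of 4 triglyceride genes was 0.06 against -0.20 over all 8 libraries, with 3 of 4 higher. That of 19 oxidative phosphorylation genes was 0.02 against -0.05, with 12 of 19 higher, and that of 3 fatty acid synthesis genes -0.03 against -0.21. Without antimiR-224 library 4 the last was -0.07. Fads2 of the synthesis list had 1536, 1590, 302 and 185 with antimiR-224 against 1378, 1376, 1151 and 279 with antimiR-452. Like Lpin2 and Plin5 of the triglyceride list, it was lowest in the 3 libraries poor in tubule genes. Elovl6, Elovl1, Cidea and Mogat1 had no such split. The part of this split in the shift of the medians was not tested. The 3 recovered fatty acid oxidation genes had a median of 0.001 over all 8 libraries and 0.005 in those 5. In both, 2 of 3 were higher.

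Cholesterol synthesis was the lipid list with most reads recovered. Of its 23 genes 20 were lower with antimiR-224, with a median log2 ratio of -0.22. Over 22 recovered genes the geometric mean was 389, 416, 346 and 319.7 with antimiR-224 against 412, 422, 482 and 387 with antimiR-452, so the groups overlapped. The median ratio of the recovered genes, -0.23, was -0.12 without antimiR-224 library 4, -0.13 without antimiR-452 library 3 and -0.12 in the 5 libraries rich in tubule genes. Lss, which closes the sterol ring, had 469, 395, 367 and 433 against 611, 423, 589 and 554 (log2 difference -0.38, SE 0.15). It was the 1 gene of the 22 at an unadjusted limma p under 0.05, against 2.09% of all tested genes. Of 9 thermogenic genes 7 were lower (median -0.42). That median was -0.20 without antimiR-452 library 1 and -0.26 without antimiR-224 library 4. Cox8b, a cytochrome oxidase subunit of brown and beige fat, had 21.8, 19.4, 115 and 73.2 against 64.5, 52.0, 143 and 124. The geometric mean of the thermogenic genes was 113, 124, 127 and 96.9 with antimiR-224 against 153, 144, 159 and 139 with antimiR-452. These did not overlap, but scramblemiR libraries ran from 95.9 to 250.1. Summed levels of the 9 genes did overlap, at 2166.5, 2194, 3372 and 2516 against 2701, 2639, 2626 and 2370. No thermogenic gene reached an unadjusted p under 0.05.

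Markers of the fat cell itself and its hormones lay close together. Of 18 mature adipocyte genes 16 were lower with antimiR-224, with a median log2 ratio of -0.11. Adiponectin had a log2 ratio of -0.03. Lep (leptin) had means of 4964 and 4499.8 (log2 ratio 0.14), both under the scramblemiR mean of 7012. Slc2a4, the insulin-responsive glucose transporter, and Adrb3, the adrenergic receptor of fat cells, had the lower log2 ratios of -0.56 and -0.47. Cilp, a protein of the extracellular matrix, had nearly equal means of 1842 and 1838 against 580.4 with scramblemiR. Its log2 ratio between the inhibitors was 0.0036. Both comparisons with scramblemiR share those control libraries. The reads of Cilp in the inhibitor libraries were not recovered.

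**Figure D4:**
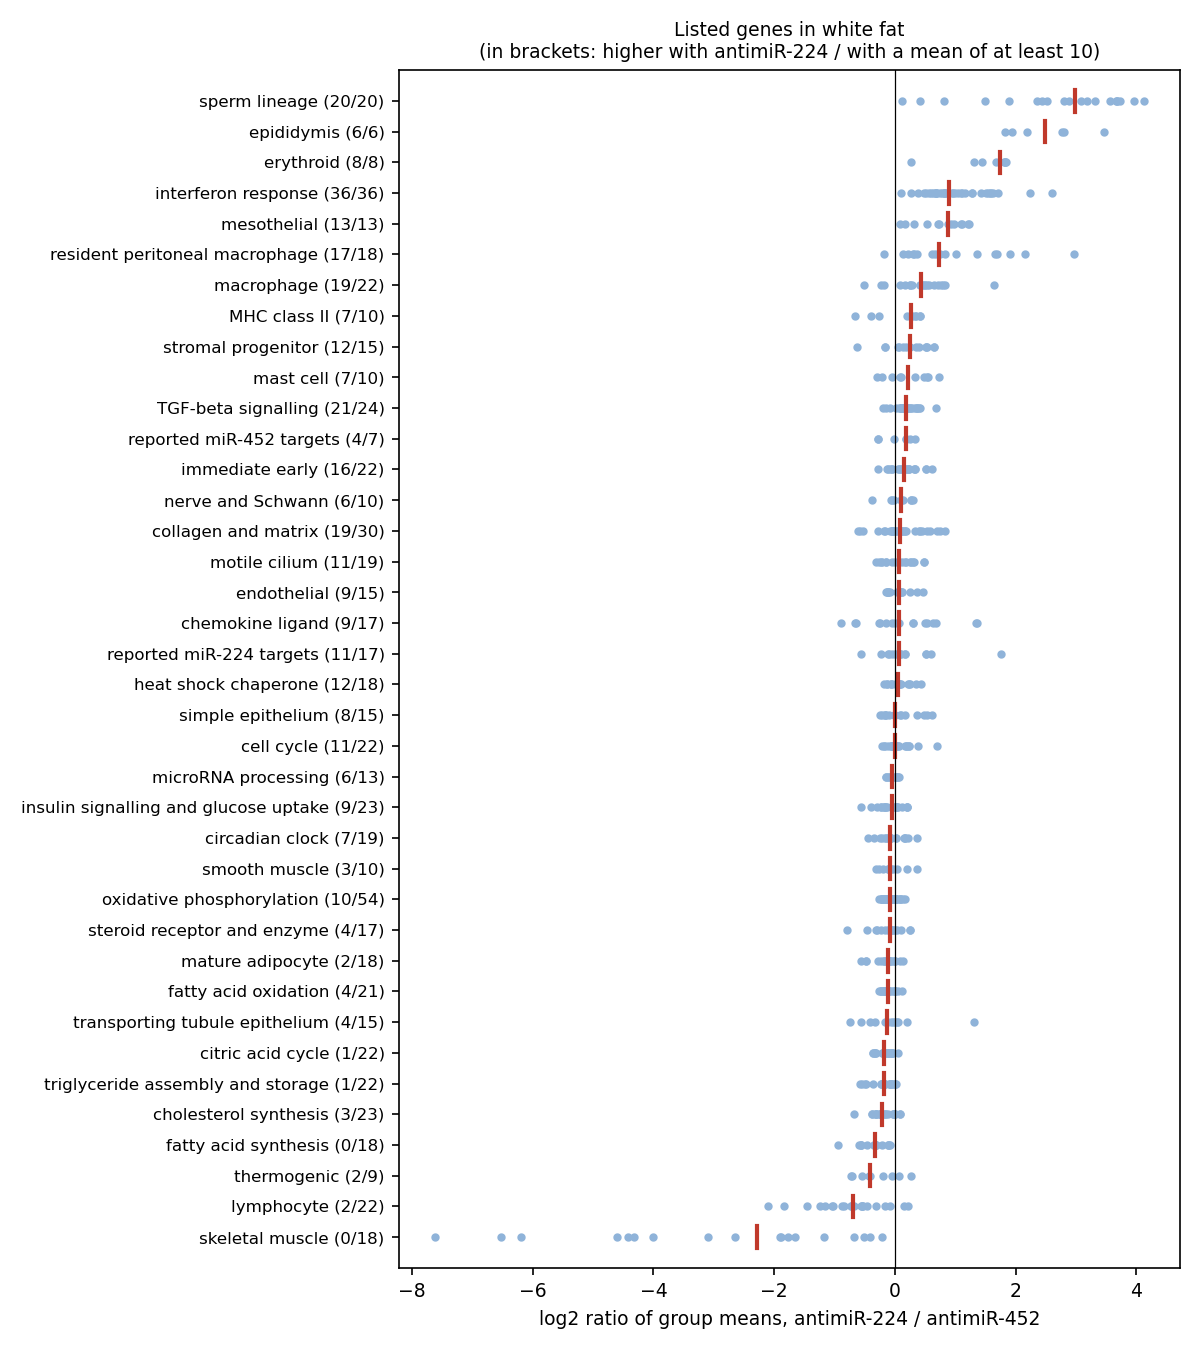
Log2 ratio of group means, antimiR-224 over antimiR-452, for the members of 38 gene lists (points) with the list median (red bar), ordered by median. Sperm, epididymis, erythroid and interferon genes lie furthest to the right and skeletal muscle and lymphocyte genes furthest to the left, while most lists centre within 0.3 of 0.

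Interferon-response genes, which cells switch on after viral or nucleic acid sensing, were higher with antimiR-224 in all 36 of 36 members (median log2 ratio 0.89), and none passed the test. The geometric mean over 31 recovered genes was 180.2, 189, 384 and 973 with antimiR-224 against 247, 179, 211 and 225 with antimiR-452. The scramblemiR libraries ran from 173 to 265. Thus antimiR-224 library 4, and to a lesser degree library 3, stood above all others, and the other 2 antimiR-224 libraries lay at the low end. Without antimiR-224 library 4 the median log2 ratio of means was 0.18. In the 5 libraries rich in tubule genes it was -0.23, with 6 of 31 higher. Zbp1, a sensor of nucleic acids, had 89.8, 72.9, 241 and 1743 against 158, 95.4, 77.7 and 119. Isg15, a ubiquitin-like modifier, had 167, 189, 278 and 1172 against 174, 112, 144 and 172. In brown fat the same contrast had a median log2 ratio of -0.49, with 1 of 34 higher.

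General macrophage markers were higher with antimiR-224 in 19 of 22 genes (median log2 ratio 0.44). Over 15 recovered genes the geometric mean was 409, 358, 419 and 576 with antimiR-224 against 465, 265, 298 and 274 with antimiR-452, which overlapped. The median over these genes, 0.47, was 0.27 without antimiR-224 library 4, 0.29 without antimiR-452 library 2, 0.81 without antimiR-452 library 1 and 0.11 in the 5 libraries rich in tubule genes. Marco, a scavenger receptor, had 109.9, 37.9, 151 and 139 against 30.1, 62.4, 17.8 and 26.5 (log2 difference 1.62, SE 0.53, unadjusted limma p 0.0139). Itgam, an integrin of myeloid cells, had 318, 300.2, 280.3 and 579 against 287, 187, 228 and 193. Marco and Itgam were the 2 of the 15 with an unadjusted limma p under 0.05, against 2.09% of all tested genes. Lymphocyte genes were lower with antimiR-224 in 20 of 22 members (median -0.70), with geometric means of 37.2, 28.7, 34.1 and 23.3 against 28.6, 152, 18.2 and 20.3. The summed level was 747 to 1379.9, 459.6 to 4428 and 455 to 3539.9 with antimiR-224, antimiR-452 and scramblemiR. The difference came from antimiR-452 library 2, and without it the median was 0.33 with 14 of 21 higher. MHC class II, mast cell and chemokine genes had medians of 0.27, 0.22 and 0.07. Over 6 recovered MHC class II genes the median was -0.03, and 0.35 without antimiR-452 library 2. The mast cell median was 0.03 without antimiR-452 library 4 and 0.56 without antimiR-452 library 1. Over recovered genes in the 5 libraries rich in tubule genes, the medians of these lists were -0.26, 0.44 and 0.22.

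Transcripts of other tissues gave the widest list medians. All 20 sperm lineage genes had a higher mean with antimiR-224 (median log2 ratio 2.98). Their geometric mean over 19 recovered genes was 17.8, 31.2, 423 and 112 with antimiR-224 against 41.1, 22.5, 9.57 and 1.23 with antimiR-452. The summed level of the 19 genes ran from 508 to 11856 with antimiR-224, 72.8 to 1115 with antimiR-452 and 75.2 to 42145 with scramblemiR. The highest of all 12 white fat libraries was a scramblemiR library, and 10 of the 19 genes were at 0 in antimiR-452 library 4. Smcp, a protein of the sperm mitochondrial sheath, had 34.0, 85.5, 674 and 187 against 59.5, 26.5, 16.8 and 2.21, which overlapped. Over the 19 genes the median was 3.09, and without antimiR-224 library 3 it was 1.82. In the 5 libraries rich in tubule genes it was 0.04. All 6 measured epididymis genes were higher as well (median 2.48), and Rnase9, a secreted epididymal protein, had 0, 528, 0 and 0 against 133, 1.89, 0 and 0. That difference came from antimiR-224 library 2, without which 1 of 3 recovered genes was higher.

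Skeletal muscle genes were lower with antimiR-224 in all 18 measured members (median log2 ratio -2.28). Their geometric mean was 17.1, 24.4, 13.95 and 12.7 with antimiR-224 against 15.01, 20.5, 526 and 8.96 with antimiR-452, so that antimiR-452 library 3 alone was high. The summed level was 639 to 1023 with antimiR-224, 719 to 16566 with antimiR-452 and 670.3 to 1085 with scramblemiR. Without it the median was 0.13 and 10 of 17 were higher. Erythroid genes were higher in all 8 members (median 1.74), with 416, 56.5, 106 and 133 against 119, 34.2, 61.0 and 92.7 over 4 recovered genes. Their summed level was 677 to 2789.9, 519 to 875 and 882 to 3669.5 with antimiR-224, antimiR-452 and scramblemiR. Without antimiR-224 library 1 the median over the 4 was 0.44. The part of these tissues in the differences between single genes was not tested.

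Signalling and housekeeping lists were near the centre. Of 24 TGF-beta pathway genes 21 were higher with antimiR-224 (median log2 ratio 0.18). Bmp4, a secreted ligand of this family, had 549, 440.1, 671 and 387 against 432, 200.3, 322 and 316 (log2 difference 0.71, SE 0.26). It was the 1 of 19 recovered members at an unadjusted limma p under 0.05, against 2.09% of all tested genes. Over the 19 recovered genes the median of 0.12 became 0.06 without antimiR-224 library 2, 0.07 without antimiR-452 library 2, 0.08 without antimiR-452 library 4 and 0.26 without antimiR-452 library 1. The list's geometric mean overlapped between the groups, at 642, 681, 484 and 530.4 and 646, 482, 577 and 417. The proteins that make and load microRNAs lay close to each other: 6 of 13 were higher, the median was -0.05 and the members ran from -0.15 to 0.06. Ago2, the slicing Argonaute, had 1414, 1268, 1552 and 1534 against 1974, 1333, 1464 and 1614. Collagen and matrix genes had a median of 0.08, insulin signalling genes -0.05, immediate early genes 0.16, heat shock chaperones 0.04 and circadian clock genes -0.08. Cell cycle genes were split evenly, 11 higher and 11 lower. Per2, a repressor of the clock, had 1159.5, 1078, 898 and 1138 against 1569, 1370.2, 1229 and 1285. It was the only clock gene whose groups did not overlap among the 12 with recovered reads. Over all tested genes, 0.858% lay apart in that direction. Endothelial and stromal progenitor markers had medians of 0.07 and 0.25.

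Transcripts reported elsewhere as miR-224 targets are the direct place to look for release by antimiR-224. The sites below were found in the longest annotated 3′ UTR (GENCODE M21, GRCm38) and are shown because they belong to members described next. Smad4 and Cdc42, also described next, held matches that are not printed. Capitals mark the match to the miR-224 seed.
Acsl4: tttccatattcataGTGACTTt
Ptx3 site 1: agagggacgattgtGTGACTTt
Ptx3 site 2: atttataccacaaaGTGACTTa
Trib1: cctctctgggctgaGTGACTTg
Egr2: gtatgctctgttttGTGACTTa
Api5: ggctacccaggagtGTGACTTg
They lie at chrX:142318585-142318606 (minus strand), chr3:66225481-66225502 and chr3:66225641-66225662 (plus), chr15:59654837-59654858 (plus), chr10:67541974-67541995 (plus) and chr2:94412680-94412701 (minus). In Egr2 and the second site of Ptx3 the match is followed by an A, the longer form of site. Of 20996 annotated 3′ UTRs, 12.7% held GTGACTT and 9.68% held TGCAAAC on the transcribed strand. A match is a description of letters and not evidence of binding.

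Of 17 reported miR-224 targets 11 had a higher mean with antimiR-224 and 6 a lower one, with a median log2 ratio of 0.06. Over the 14 with recovered reads 11 were higher (median 0.09), but without antimiR-224 library 2 only 6 were, with a median of -0.08. Of the 14, 0 passed and 1 was at an unadjusted limma p under 0.05, against 2.09% of all tested genes. That 1 target was Acsl4, which couples arachidonic acid to coenzyme A. Its counts were 776, 1033, 1305 and 917 with antimiR-224, 489.8, 712, 667 and 780.1 with antimiR-452 and 872, 820.4, 1076 and 665 with scramblemiR. The highest antimiR-452 library lay just above the lowest antimiR-224 library, and the log2 difference was 0.60 (SE 0.19, unadjusted limma p 0.014). The scramblemiR libraries overlapped both groups. Ptx3, a soluble pattern recognition protein with 2 matches, had 112, 83.6, 9.82 and 279 against 67.0, 27.4, 34.6 and 12.1. Its log2 ratio of 1.75 was the highest of the list, yet the lowest library of all 8 was also an antimiR-224 one. Api5, an inhibitor of apoptosis, had 1812, 1931, 1879 and 1798 against 1748, 1692, 1756 and 1795, without overlap but with a log2 difference of 0.09 (SE 0.06).

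Trib1, a pseudokinase, had 765, 1361, 806 and 770.3 against 863, 881, 817 and 728, and Egr2, an early growth response factor, 61.0, 289, 37.1 and 67.6 against 143, 41.6, 80.8 and 53.0. Both ratios came from antimiR-224 library 2. Smad4, the common mediator of TGF-beta signals and a much studied miR-224 target, had 1564, 1608, 1674 and 1584 against 1939, 1285, 1366 and 1561 (log2 difference 0.08, SE 0.13). Cdc42, a small GTPase, had group means of 9251 and 9278. Of the 7 reported miR-452 targets, which would be higher with antimiR-452 if released, 4 were higher with antimiR-224 (median 0.18). Wwp1, a ubiquitin ligase, had 1649, 1647, 1767 and 1849.8 against 1087, 1311, 1543 and 1558, with the groups apart (log2 difference 0.34, SE 0.12, unadjusted limma p 0.0234). Bmi1, a Polycomb protein, overlapped at 901 to 1180.4 and 675 to 1084. The geometric mean of the miR-224 list was 383, 516, 261 and 347 with antimiR-224 against 446, 291, 324 and 276 with antimiR-452, and the groups overlapped.

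Across the transcriptome, classes of genes with a seed match had medians within 0.05 of that of all genes with neither match. The median log2 ratio was 0.01 for 1751 genes with a miR-224 match only, 0.02 for 1122 with a miR-452 match only, 0.03 for 366 with both and 0.01 for 11531 with neither. Shares higher with antimiR-224 were 52.0%, 54.1%, 56.8% and 52.3% in the same order. Genes with matches had longer 3′ UTRs, with a median length of 2176 bases for miR-224 alone and 861 for neither. Where the UTR was longer than 1500 bases and held neither match, the median of 3462 genes was -0.0033, and 49.0% were higher with antimiR-224. With 2 or more miR-224 matches the median was 0.03 over 331 genes, and with 2 or more miR-452 matches 0.05 over 156. Shares higher in these last classes were 58.9% and 62.2%. Their UTRs were longer still, with median lengths of 3779 and 3749.5 bases. In every class 0 genes passed the limma test.

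**Figure D5:**
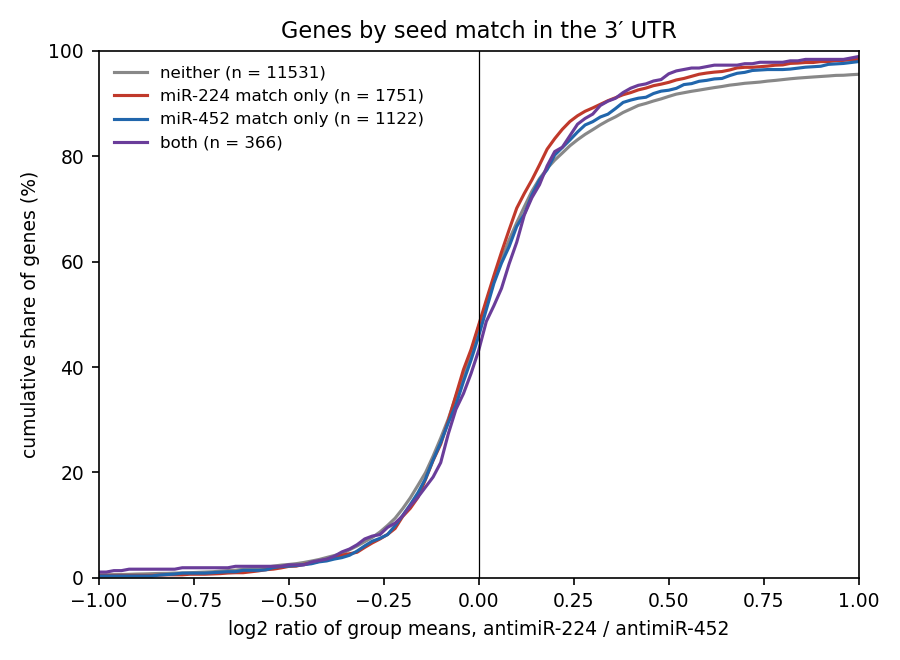
Cumulative share of genes (%) by log2 ratio of group means, antimiR-224 over antimiR-452, for genes whose 3′ UTR holds a miR-224 seed match, a miR-452 match, both or neither. The 4 curves cross the 50% level between log2 ratios of 0.01 and 0.03, and beyond 0.3 the curve of genes with neither match runs lowest.

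In brown fat the same contrast of 4 against 4 libraries gave 0 calls among 11990 genes (0.0%) and 55 at an unadjusted p under 0.05 (0.459%). A test of whether the contrast differed between the tissues found 0 calls in 13100 genes (0.0%); 143 had an unadjusted p under 0.05 (1.09%), and the lowest adjusted p by limma was 0.9996. In brown fat Prg4 averaged 53.4 with antimiR-224 against 63.2 with antimiR-452. The difference of its contrast, white minus brown, was 1.87 on the log2 scale (SE 0.60). Padi4 was nearly absent from brown fat, with means of 0.399 and 4.48. Fasn, lower with antimiR-224 in white fat, had brown fat means of 360367 and 335340.0, a log2 ratio of 0.10. Fatty acid synthesis genes as a list had a median of 0.10 there, with 11 of 18 higher. Skeletal muscle genes were lower with antimiR-224 in brown fat too, at a median of -2.53, where Myh4 had means of 21374 and 192632. Reads of Myh4 were not recovered in brown fat, so whether 1 library gave that ratio, as in white fat, is not known. Whether the same mice gave both tissues is not in the labels, and the test treated the tissues as independent.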

How the data were processed

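Poly(A)-selected RNA of 8 white fat libraries was compared, 4 per inhibitor. The authors deposited 1 table per tissue and inhibitor, and per the file headers each holds the mean signal (normalized count) of each group, their ratio, its log2, a p-value and an adjusted p-value. The submitters' processing notes name DESeq 1.10.1, R 2.15.3 and GRCm38.p4. Aligner and counter: not given in the sources used here. Both tables were put on 1 scale with the median ratio of their scramblemiR columns, 1.0061.

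Each group mean was solved for 4 whole read numbers over their size factors and kept where exactly 1 solution matched (largest relative error 5.13e-15). In white fat, scramblemiR libraries held 22175430 to 27935908 reads, and the inhibitor libraries held 6047487 to 8171682 in recovered genes alone. No pair of libraries of a group agreed within sampling noise (chi-square per degree of freedom 11.3 or more). Limma 3.58.1 (R 4.3.3, trended and robust variance, Benjamini-Hochberg at 0.05) was fitted to log2(normalized count + 1) and tested on simulated data.

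Named genes are the 12 with the lowest p and the 5 with the largest ratio (mean of at least 50) in each direction, 5 chosen by name (Gabre, Cilp, Fasn, Adipoq, Lep), the reported targets, and up to 4 per list by p. Abhd5, Adrb3, Alox15, Dgat2, F5, Gata6, Greb1, Plin1, Slc2a4 and Zbp1 were named after their values were seen. The comparison, the 37 lists and the alternatives were chosen with earlier results of these data known, and the list of resident peritoneal macrophages after these values were seen.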

Additional observations from a re-analysis of the deposited data

Results flagged for a closer look

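In 158 groups of 4 libraries checked on the log2 scale, 13 held a library whose gap to the nearest other exceeded Dixon's 95% critical value as a share of the range of the group. Chance gives about 1 in 20 groups where groups are independent and not chosen by their values. Here related lists share libraries, and genes named for a large ratio were included, so that rate is no yardstick for these groups. AntimiR-452 library 4 stood low in the geometric means of simple epithelium (4.70), tubule epithelium (27.3) and motile cilium genes (7.11), and in the counts of the epithelial genes Cldn7 (2.21) and Elf3 (3.31). AntimiR-452 library 2 was low in Cd5l (8.50). AntimiR-452 library 3 was low in Flcn (1654) and high in Ckm, the muscle creatine kinase (1591). AntimiR-452 library 1 was high in Crisp4, a secreted protein of the epididymis (24.3). AntimiR-224 library 2 was high in Crisp4 (192), Rnase9 (528) and Trib1 (1361), and antimiR-224 library 3 in Igkv8-19 (636).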

How the results depend on the processing

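No paired analysis was possible because the recovered reads cannot be tied to the sample titles that carry the replicate numbers. The count of 0 genes called between the inhibitors held in all alternatives except the test without a minimum mean, which called 1 of 25729 genes. That gene, Gm12405, had a log2 difference of -0.99 (adjusted limma p 0.0230), with 0 counts in all antimiR-224 libraries and 0.837 to 1.103 normalized counts, 1 read each, in the antimiR-452 libraries. Without 1 library at a time the count at an unadjusted p under 0.05 ran from 210 to 577, highest without antimiR-452 library 1. It was 625 with the tubule list as a covariate and 886 with no minimum mean, against 312. The count of differences between white and brown fat was 0 in every alternative, and at an unadjusted p it ran from 70 to 419 against 143. Genes over 2-fold higher with antimiR-224 numbered 205 where the mean was at least 50 and 1764 where it was at least 1, and those over 2-fold lower 28 and 509. Both alternatives change the number of genes compared. All 24 genes with the lowest p kept their direction in all 453 combinations of gene and alternative. They were chosen by p in these same data, so this is no test of them. Groups overlapped only for Ftl1, and leaving out 1 library could not reverse the others. The fitted median kept 1 sign over all alternatives in 14 of 36 lists and took both signs in 22. Among the 22, it ran from -0.17 to 0.91 for interferon genes, from -0.67 to 0.20 for lymphocyte, from -1.48 to 0.29 for skeletal muscle, from -0.42 to 0.07 for triglyceride assembly, from -0.16 to 0.81 for collagen and matrix, from -0.16 to 0.41 for immediate early genes, from -0.08 to 0.26 for reported miR-224 targets, from -2.72 to 0.49 for simple epithelium and from -1.17 to 1.90 for epididymis. The thermogenic median stayed below 0 (from -0.60 to -0.20) but moved by more than the spread between libraries in 6 of 19 alternatives. Library totals with the inhibitors are not known, and ratios of genes near the minimum mean rest on few reads.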

Other observations

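Genes of steroid action and of smooth muscle showed how far single genes follow the epithelial split. Of 17 steroid receptor and enzyme genes 4 had a higher mean with antimiR-224 (median log2 ratio -0.09). Greb1, a cofactor of steroid receptors, had 704, 885, 4.36 and 7.76 with antimiR-224 against 667, 877, 666 and 4.41 with antimiR-452. Srd5a2, a steroid 5-alpha reductase, had 217, 284, 0 and 0 against 303, 343, 229.8 and 0. Both were low in the same 3 libraries as the tubule genes. Ncoa2, a coactivator of nuclear receptors, had 1296, 1418, 1513 and 1291 against 1542, 1377, 1419 and 1525, with no such split. Of 10 smooth muscle genes 3 were higher (median -0.08), and of 10 nerve and Schwann cell genes 6 (median 0.10). Cnn1, a calponin of smooth muscle, had 371, 700.5, 116 and 203 against 600.4, 456, 338 and 110.3, again lowest in those 3 libraries.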
